A study of Mus musculus with 8 samples.

Results

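Keratinised medullary thymic epithelial cells of the adult mouse are the cells described here. They were taken from the 2 adult mTEC libraries of a study of thymic epithelial cells (TEC) across age, and were chosen by their own transcripts. A member had at least 5 unique molecular identifiers (UMIs, each standing for 1 captured transcript) of Spink5, Krt10, Ivl and Krt80 together. It also had under 5 UMIs of Aire, under 3 of Top2a and Mki67 together, Ccl21a below 0.5% of its UMIs, and under 5 UMIs of the tuft genes Trpm5, Avil, Dclk1, Gnb3, Sh2d6 and Pou2f3 together. Of 7201 adult mTEC that passed the limits on mitochondrial UMIs and genes, 219 cells met this rule, 19 of 1586 in replicate 1 and 200 of 5615 in replicate 2. The 8 libraries of the series held 25750 cells that passed the same limits on quality.

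Both mTEC libraries came from the thymus of wild-type C57 B6 (CD45.2) mice, aged 4 to 6 weeks and of either sex per the methods of the study, with no treatment in the labels. Live cells that were EpCAM+, CD45- and Ly51- and bound the lectin UEA-1 were sorted, and cTEC were the Ly51+ cells that did not bind UEA-1. Replicate 1 belonged to the first and replicate 2 to the second of 2 data sets with separate gene tables, so a difference between the replicates and one between the data sets cannot be told apart. The labels do not say how many mice each library held, so that p-values measure the spread between these 2 libraries only. A growth field of the labels names bone marrow, whereas the tissue field names thymus, and the epithelial markers below bear on this.

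The thymic medulla shows developing T cells the proteins of other tissues. Medullary cells express Aire, the regulator that switches on many tissue-restricted antigens, and some of them later take on features of skin epithelium and end in Hassall's corpuscle-like bodies. In skin, keratinocytes leave the basal layer, change their keratins, and build a cornified envelope of crosslinked proteins and lipids under the control of factors such as Klf4, Grhl1 and Zfp750. Spink5 encodes an inhibitor of epidermal proteases, Krt10 a suprabasal keratin, Ivl the envelope protein involucrin, and Krtdap a protein of differentiating keratinocytes.

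The members were set beside 3 other gates of the same libraries. Aire-high cells (450 and 1634 cells in replicates 1 and 2) had at least 5 Aire UMIs, Ccl21a-high cells (669 and 1092) had Ccl21a at or above 0.5% of UMIs, and ungated cells (307 and 1928) reached none of the limits. Ccl21a encodes a chemokine that draws thymocytes into the medulla. The members had a median of 5653 and 7953.5 UMIs per cell, against 12654.5 and 14857 in Aire-high, 7286 and 8354.5 in Ccl21a-high and 9612 and 9292.5 in ungated cells. Counts of a gate were summed per library, and the sum of the 19 members of replicate 1 held 131206 UMIs against 1648009 in replicate 2. Levels are given as UMI counts scaled to a common total (CPM) for replicate 1 and then replicate 2. Of the members of replicate 1, 1 shared its cell barcode with a cell of another library (E17.5), and of those of replicate 2, 1 did so with mTEC replicate 1, 3 with E15.5, 1 with newborn and 1 with E17.5 cells. No doublet caller was run.

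The values that chose the members are a description. The 4 keratin-rule genes together had a median of 20 and 12 UMIs per member, with a highest value of 82 and 118. Spink5 had UMIs in 17 of 19 and 178 of 200 members, Krt10 in 9 and 115, Ivl in 4 and 23, and Krt80 in 0 and 55. Krt80 had no UMI in any library of the first data set, so the rule rested on 3 genes there. UMIs of more than 1 of the 4 genes were found in 10 of 19 and 120 of 200 members. At the threshold, 2 and 27 members had exactly 5 UMIs, and 2 and 36 cells missed the rule by 1 UMI alone. The members made up 1.20% of replicate 1 (95% exact binomial interval 0.723 to 1.86) and 3.56% of replicate 2 (3.09 to 4.08), and these intervals cover counting error only. With each cell thinned to 5000 UMIs the shares were 0.895% and 2.34%.

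**Figure D1:**
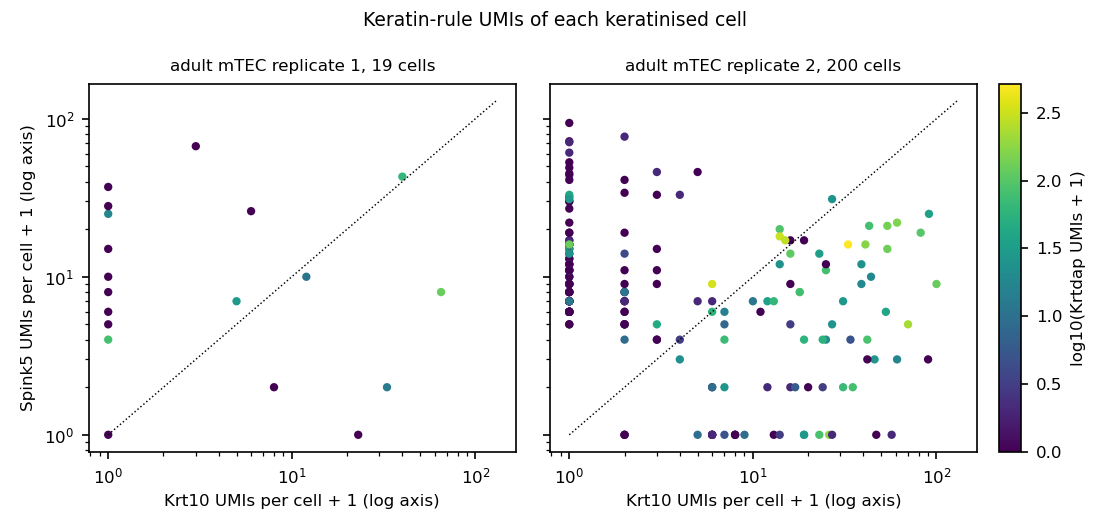
Each point is 1 member of adult mTEC replicate 1 or 2, with its Krt10 UMIs on the x axis and its Spink5 UMIs on the y axis (each plus 1, log axes, dotted line at equality) and colour giving Krtdap UMIs on a log10 scale. The 75 cells of replicate 2 below the line (more Krt10 than Spink5) had a median of 18 Krtdap UMIs and the 123 above it a median of 0.

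Genes that the rule did not use describe the members further. Krtdap is itself one of the markers of the label, so its level is no separate check of the name. Krtdap was at 2137 and 3187 CPM in the members, 54.1 and 78.9 in Aire-high, 349 and 244 in Ccl21a-high and 91 and 113 in ungated cells. It was thus highest in the members of both libraries, and Ccl21a-high cells held it above Aire-high cells. A single UMI of Krtdap is not read as expression here, since in replicate 2 it was found in 19.1% of 115 tuft-gated cells of the same library after thinning to 5000 UMIs, against 45.8% of 155 members (32.8% and 55% without thinning, at a median depth of 7678 and 7953.5 UMIs). In replicate 1, 0 of 13 tuft-gated cells and 41.7% of 12 members had one. At least 5 Krtdap UMIs were found in 7 of 19 and 67 of 200 members and in 0 of 15 and 2 of 134 tuft-gated cells, so that most members did not reach this level. Among Ccl21a-high cells 112 of 669 (16.7%) and 146 of 1092 (13.4%) reached it, so Krtdap was not particular to the members. In replicate 1 without thinning, 36.8% of members and 35.9% of Ccl21a-high cells had a Krtdap UMI. All 8 epithelial markers had UMIs in the members of both libraries, and Epcam, the sorting marker, was at 905 and 806 CPM against 689.6 and 580.1 in Aire-high and 1462 and 896 in Ccl21a-high cells. The 8 markers summed to 8353 and 9956 CPM in the members, the lowest of the 4 gates in both libraries, against 13150 and 12690 in Aire-high and 12350 and 10980 in Ccl21a-high cells, and 3 of them were higher and 2 lower than in Aire-high cells. Thymocyte markers summed to 7.62 and 21.8 CPM, with UMIs of 1 and 7 of 12 markers. B and myeloid markers (13 genes with 14 entries in the files) summed to 91.5 and 419.9 CPM (5 and 14 of 14 entries with a UMI) against 983 and 912 CPM in Aire-high and 39.8 and 159 CPM in Ccl21a-high cells. Erythroid markers summed to 22.9 and 71.6 CPM, against 160.3 and 172 in Aire-high and 0.383 and 15.9 in Ccl21a-high cells. The part of either in the differences from these gates was not tested.

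The name post-Aire could not be checked, because the data hold no order in time. Aire is the gene of an upper limit in the rule, and 1 of 19 and 100 of 200 members had an Aire UMI. A single Aire UMI is not read as expression, because its share moved with the library in other cells too, from 8.82% to 47.9% in Ccl21a-high and from 20% to 46.3% in tuft-gated cells of replicates 1 and 2. In the 100 members of replicate 2 without an Aire UMI the cornified envelope list summed to 22013 CPM, and in the 100 with 1 to 4 UMIs to 13299 CPM. The median depth of these cells was 6169.5 and 9097.5 UMIs, and its part in this difference was not tested.

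The comparison with Aire-high cells asks what sets the keratinised members apart from mature medullary cells. Of 15350 genes tested, 1507 (9.82%) were higher and 1623 (10.6%) lower in the members at an adjusted p under 0.05 (edgeR quasi-likelihood test with Benjamini-Hochberg adjustment), 20.4% in either direction, and the median log2 fold change over all genes was -0.18. Genes that vary together with the 4 rule genes or with Aire from cell to cell would also differ between gates chosen by those genes, so the calls describe the chosen cells. Where each cell's UMIs were split at random, with one part used for the gates and the other for the levels, 2258 of 13195 genes passed. Without the library term 1748 genes passed, and with weights that let each sum have its own spread 2372 passed, of which 62.4% were higher against 48.2% in the fit reported.

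Genes of the cornified envelope were higher in the members than in Aire-high cells. Of 57 tested genes of this list, 26 were higher and 0 lower, against 9.82% of all genes, and the median log2 fold change was 2.03. The list summed to 19530 and 17040 CPM in the members, 1615 and 1749 in Aire-high cells, and 1101 and 998 in Ccl21a-high cells. In the shallow sum of replicate 1, 23 of the 57 genes had no UMI, and 24 of the 26 genes were higher in both libraries. Ly6d, a surface protein of stratified epithelium, was at 4402 and 4377 CPM in the members and 353 and 368 CPM in Aire-high cells, a log2 fold change of 3.60 ± 0.35 (SE, adjusted p = 0.0017). Neither gate came near the other in either library. Krtdap had a log2 fold change of 5.32 ± 0.31 (SE, adjusted p = 0.00031) on the levels above. Dmkn (dermokine), a secreted protein of differentiating skin, was at 1527 and 1375 against 44.1 and 62.7 CPM, 4.76 ± 0.34 (SE, adjusted p = 0.0005).

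Suprabasin (Sbsn) was at 488 and 693 against 31.4 and 49 CPM, a log2 fold change of 3.88 ± 0.17 (SE, adjusted p = 3.7e-05). Sprr1a, a small proline-rich precursor of the envelope, was at 1502 and 1262 against 328 and 333 CPM, a difference of 2.06 ± 0.17 (SE, adjusted p = 0.00039) on the log2 scale. Sprr1a was thus present in Aire-high cells too, at a lower level in both libraries. Calm4, a skin calmodulin-like protein, was at 661 and 1037 against 7.67 and 17.6 CPM (log2 fold change 6.09 ± 0.53 SE, adjusted p = 0.0018). Cornifelin (Cnfn), a component of the cornified envelope, was at 488 and 508 against 10.1 and 21.7 CPM (log2 fold change 4.94 ± 0.67 SE, adjusted p = 0.0099). The crosslinking enzyme Tgm1 and the plakin envoplakin (Evpl) were low in level and had the same UMI counts in the members, both at 51.3 and 25.3 CPM, with log2 fold changes of 4.22 ± 0.51 (SE, adjusted p = 0.0012) and 4.37 ± 0.56 (SE, adjusted p = 0.0015).

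Genes around filaggrin were higher too, at unequal levels. Repetin (Rptn) was at 609.6 and 369 CPM against 2.96 and 12.6, a log2 fold change of 5.97 ± 0.82 (SE, adjusted p = 0.01). Filaggrin (Flg), which bundles keratin in the outer skin, was at 924 and 121 CPM against 0.872 and 5.45 (log2 fold change 6.52 ± 1.41 SE, adjusted p = 0.036). Flg of replicate 1 stood far above that of replicate 2, and its call held in 13 of 16 alternatives. Asprv1, the protease that processes filaggrin, was at 552 and 683 against 67.3 and 75.4 CPM (log2 fold change 3.04 ± 0.71 SE, adjusted p = 0.044), and its call held in 10 of 16 alternatives. Of the late envelope genes no Lce gene passed against Aire-high cells, and Lce1f was at 64.2 and 3.08 CPM against 9.76 and 2.16.

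Keratins of stratified epithelium were higher in the members. Of 13 suprabasal and stress keratins, 7 (53.85%, against 9.82% of all genes) were higher and 0 lower. Krt16, a stress keratin, was at 353 and 389 CPM against 35.6 and 50.6, a log2 fold change of 3.09 ± 0.17 (SE, adjusted p = 7.7e-05). Krt6a was at 276 and 131 against 0.523 and 1.31 CPM (log2 fold change 7.27 ± 0.45 SE, adjusted p = 0.00019) and Krt78 at 237 and 319 against 7.32 and 13.7 CPM (log2 fold change 4.69 ± 0.52 SE, adjusted p = 0.0031). All 3 were higher than in Aire-high cells in both libraries, and Krt6a had 3 and 29 UMIs in all of those cells. Krt1, the partner of Krt10 in skin, was at 57.8 and 244 against 8.37 and 17.4 CPM (log2 fold change 3.57 ± 0.28 SE, adjusted p = 0.00034), and this call was lost without the library term (adjusted p = 0.0506). Krt17 was abundant in both gates, at 7226 and 5323 against 2703 and 3106 CPM (log2 fold change 1.10 ± 0.15 SE, adjusted p = 0.0021). Among 8 basal and simple keratins 6 (75%, against 9.82% of all genes) were higher and 0 lower. Krt5, the basal keratin, was at 1579 and 466 against 70.6 and 98 CPM (log2 fold change 3.40 ± 0.59 SE, adjusted p = 0.02), whereas the simple keratin Krt8 was at 1514 and 1891 against 1782 and 1955 CPM and did not pass (log2 fold change -0.13 ± 0.12 SE, adjusted p = 0.47).

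**Figure D2:**
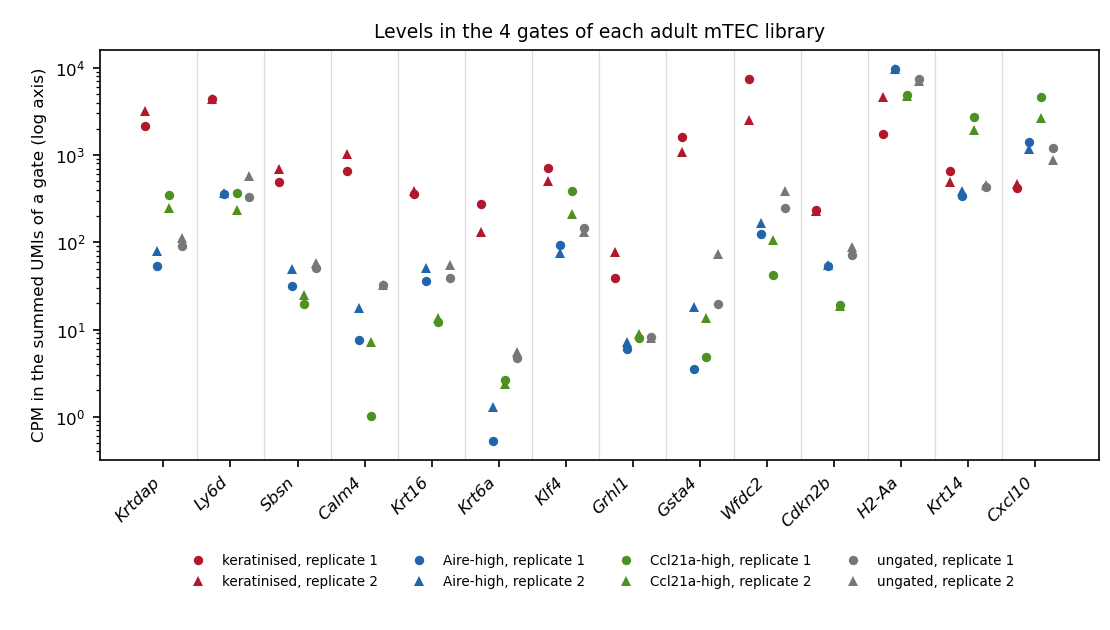
Each symbol is the level of a gene in the summed UMIs of 1 gate and library, in CPM on a log axis, with circles for replicate 1 and triangles for replicate 2. The members (red) lie above the other gates in both libraries from Krtdap to Cdkn2b, while H2-Aa and Cxcl10 lie lowest in the members and Krt14 is highest in Ccl21a-high cells.

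Genes of cell junctions, skin proteases and barrier lipids were also higher. Of 23 desmosome and junction genes 15 (65.2%, against 9.82% of all genes) were higher and 0 lower (median log2 fold change 2.01). Perp, a desmosomal membrane protein, was at 1482 and 1142 against 93.6 and 102 CPM (log2 fold change 3.72 ± 0.18 SE, adjusted p = 5.7e-05), desmoplakin (Dsp) at 571 and 469.7 against 35 and 57.2 (log2 fold change 3.47 ± 0.32 SE, adjusted p = 0.00081) and plakoglobin (Jup) at 372 and 308 against 33.8 and 58 (log2 fold change 2.84 ± 0.32 SE, adjusted p = 0.0016). All 3 were severalfold above Aire-high cells in each library. Of 23 epidermal proteases and inhibitors 12 (52.2%, against 9.82% of all genes) were higher and 0 lower. Serpinb2 was at 1470 and 598 against 22.3 and 50.5 CPM (log2 fold change 4.91 ± 0.83 SE, adjusted p = 0.018), with its call held in 15 of 16 alternatives. Klk7, a protease that Spink5 inhibits in skin, was at 314 and 168 against 73.2 and 52.6 CPM (log2 fold change 1.81 ± 0.42 SE, adjusted p = 0.031), and its call held in 11 of 16. Of 23 barrier lipid enzymes 11 (47.8%, against 9.82% of all genes) were higher and 0 lower. Among them the lipase Lipm was at 70.6 and 72.7 against 1.74 and 2.79 CPM (log2 fold change 4.88 ± 0.35 SE, adjusted p = 0.0003), Elovl7, which lengthens fatty acids, at 135 and 90 against 16.4 and 21.6 (log2 fold change 2.36 ± 0.25 SE, adjusted p = 0.00071), and Abhd5, a lipase cofactor, at 44.9 and 88.1 against 17.1 and 20.7 (log2 fold change 1.97 ± 0.22 SE, adjusted p = 0.00096).

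Of 35 factors of epithelial differentiation 22 were higher and 3 lower, with a median log2 fold change of 1.51. Klf4, a driver of terminal skin differentiation, was at 719 and 501 CPM in the members and 92.6 and 75.4 CPM in Aire-high cells, 2.84 ± 0.20 (SE, adjusted p = 0.0003) on the log2 scale. Grhl1, a regulator of desmosomal genes, was at 38.5 and 78.3 against 5.93 and 7.26 CPM (log2 fold change 3.29 ± 0.30 SE, adjusted p = 0.00048) and Zfp750, a factor of late skin differentiation, at 51.3 and 102 against 11.9 and 14.3 (log2 fold change 2.69 ± 0.23 SE, adjusted p = 0.00039). Ovol1 was at 109 and 83.8 against 18 and 14.2 CPM (log2 fold change 2.53 ± 0.29 SE, adjusted p = 0.001), Barx2 at 44.9 and 72.7 against 4.71 and 7.71 (log2 fold change 3.25 ± 0.25 SE, adjusted p = 0.00034) and Cebpa at 141 and 138 against 25.6 and 21.7 (log2 fold change 2.62 ± 0.17 SE, adjusted p = 0.00019). These 6 genes passed in every alternative run. Of the Notch pathway, Hes1, a Notch target, was at 96.3 and 119.6 against 9.07 and 9.24 CPM (log2 fold change 3.63 ± 0.18 SE, adjusted p = 5.8e-05) and the receptor Notch1 at 38.5 and 50.5 against 19.2 and 17 (log2 fold change 1.47 ± 0.21 SE, adjusted p = 0.0023). The 3 lower genes (8.57% of the 35, below the 10.6% of all genes) were Foxn1, Pax1 and Maf. Foxn1, the master factor of thymic epithelium, was at 32.1 and 34.5 against 61.2 and 69.8 CPM (log2 fold change -1.05 ± 0.23 SE, adjusted p = 0.016), with its call held in 11 of 15 alternatives, and Pax1 at 6.42 and 21.6 against 54.6 and 55.9 (log2 fold change -1.58 ± 0.27 SE, adjusted p = 0.0052), held in 13 of 16.

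Genes outside the skin lists stood among the largest differences. Among genes with an average log2 CPM above 5, the 10 with the largest increases were Gsta4, Flg, Dapl1, Lypd3, Calml3, Calm4, Spink1, Rptn, Gsto1 and Cyp2f2, with log2 fold changes from 5.44 to 7.27 and with 45 to 502 UMIs in the sum of replicate 1. Gsta4, a glutathione transferase, was at 1617 and 1091 CPM against 3.49 and 18 (log2 fold change 7.27 ± 0.88 SE, adjusted p = 0.0071). Dapl1 was at 3221 and 3361 against 19.9 and 73.4 CPM (log2 fold change 6.39 ± 0.78 SE, adjusted p = 0.0074), and Calml3, an epithelial calmodulin-like protein, at 289 and 390.1 against 2.09 and 5.9 (log2 fold change 6.30 ± 0.45 SE, adjusted p = 0.00064). The glutathione transferase Gsto1 was at 1989 and 991 against 20.1 and 26.8 CPM (log2 fold change 5.95 ± 0.52 SE, adjusted p = 0.0019). Its call held in 15 of 16 alternatives and was lost with Krt10-led members alone (log2 fold change 0.50, adjusted p = 0.505), the members with more Krt10 than Spink5 UMIs described further on. Of 10 markers of secretory cells 6 (60%, against 9.82% of all genes) were higher and 0 lower, with a median log2 fold change of 4.01. Over the alternatives, some of which tested fewer genes, 1 to 7 were higher and the median ran from 0.68 to 4.62. Wfdc2, an airway protease inhibitor, was at 7405 and 2528 against 124 and 167 CPM (log2 fold change 5.14 ± 0.81 SE, adjusted p = 0.015), and Bpifa1, a secreted airway protein, at 1360 and 666 against 10.3 and 52.9 (log2 fold change 5.22 ± 1.14 SE, adjusted p = 0.037). Both were higher in replicate 1 than in replicate 2, and their calls held in 15 and 13 of 16 alternatives. Of 8 microfold cell markers 4 were higher and 0 lower than in Aire-high cells, and 5 and 0 than in Ccl21a-high cells, but 0 were higher or lower than in ungated cells, where they summed to 2988 and 2978 CPM against 3773 and 2964 in the members. Secretory and microfold markers are not features of skin and, like Gsto1, Spink1 and Reg3g, were spread unevenly over the members.

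Cell cycle inhibitors were among the higher genes. Of 16 inhibitors 6 (37.5%, against 9.82% of all genes) were higher and 2 (12.5%, near the 10.6% of all genes) lower, with a median log2 fold change of 0.32. Cdkn1a (p21) was at 1232 and 949 CPM against 99.7 and 156 (log2 fold change 3.08 ± 0.27 SE, adjusted p = 0.00063), Cdkn2a at 526 and 218 against 53.2 and 42 (log2 fold change 2.81 ± 0.31 SE, adjusted p = 0.0015) and Cdkn2b at 237 and 227 against 53.9 and 55.2 (log2 fold change 2.07 ± 0.16 SE, adjusted p = 0.00034). None of 41 S phase genes was higher and 4 (9.76%) were lower, a share near the 10.6% of all genes, and of 50 G2M genes 1 was higher and 10 (20%) lower; Top2a and Mki67, which set the cycling limit of every gate, are not among the genes tested. Dissociation stress genes moved with these results, and their part in them was not tested. Of 17 genes 13 were higher and 0 lower, and the list summed to 17770 and 10950 CPM in the members against 6158 and 4235 in Aire-high and 18650 and 11960 in Ccl21a-high cells. Hspb1, a heat shock protein that differentiating keratinocytes also express, was at 2304 and 2394 against 142 and 308 CPM (log2 fold change 3.42 ± 0.38 SE, adjusted p = 0.003).

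MHC class II genes were lower in the members. Of 12 genes of class II presentation 11 were lower and 0 higher, against 10.6% of all genes, with a median log2 fold change of -1.61 and a negative value for all 12 in each library. The list summed to 13370 and 23930 CPM in the members, against 54560 and 46920 in Aire-high, 29220 and 26600 in Ccl21a-high and 46210 and 37940 in ungated cells. The members held the lowest class II sum of the 4 gates in both libraries. The invariant chain Cd74 was at 5814 and 10546 against 28754 and 23831 CPM (log2 fold change -1.68 ± 0.32 SE, adjusted p = 0.022) and H2-DMb2, which helps load peptides, at 128 and 345 against 1352 and 1152 (log2 fold change -2.27 ± 0.38 SE, adjusted p = 0.011). The class II chain H2-Ab1 was the 1 gene that missed the threshold, at 2015 and 5225 against 9514 and 9305 CPM (log2 fold change -1.42 ± 0.42 SE, adjusted p = 0.078). The call of H2-DMb2 held in every alternative and that of Cd74 in 15 of 16. Of 16 class I genes 0 were higher and 3 (18.75%, against 10.6% of all genes) lower, among them the chaperone Calr at 648 and 613 against 1727 and 1628 CPM (log2 fold change -1.41 ± 0.14 SE, adjusted p = 0.00066).

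The Aire program was partly lower than in Aire-high cells, and limits on Aire chose both gates. Of 17 genes 4 (23.5%, against 10.6% of all genes) were lower and 0 higher. Against Ccl21a-high cells 3 (17.6%, against 13.2%) were higher and 0 lower, and against ungated cells 0 were higher and 1 (5.88%, against 3.08%) lower. Relb, an NF-kB subunit needed for medullary cells, was at 154 and 160.2 CPM against 332 and 323 in Aire-high cells (log2 fold change -1.06 ± 0.15 SE, adjusted p = 0.0021) and Nfkb2 at 109 and 115 against 193 and 233 (log2 fold change -0.96 ± 0.16 SE, adjusted p = 0.0045). Fezf2, a second regulator of tissue-restricted antigens, was at 173 and 414 against 816 and 676 CPM and did not pass (log2 fold change -1.24 ± 0.37 SE, adjusted p = 0.063). Of 32 tissue-restricted antigens 2 (6.25%) were higher and 4 (12.5%) lower, near the 9.82% and 10.6% of all genes. The antimicrobial lectin Reg3g was at 9805 and 10684 against 627 and 1017 CPM (log2 fold change 3.73 ± 0.61 SE, adjusted p = 0.017). Its call held in 14 of 16 alternatives, and with Krt10-led members alone the log2 fold change was -0.71. The milk casein Csn2 was at 488 and 479.5 against 1716 and 1454 CPM and did not pass (log2 fold change -1.76 ± 0.57 SE, adjusted p = 0.099). Genes among the 10 largest decreases were Rprm, Hdc, Nptx2, Pcp4l1, Madcam1, Crhbp, Cck, Calca and Nxpe3. In the members these had only 0 to 5 UMIs in replicate 1 and 13 to 126 in replicate 2, with log2 fold changes from -3.75 to -3.00. Crhbp, which binds a stress hormone, was at 12.8 and 22.2 against 187 and 179.8 CPM (log2 fold change -3.25 ± 0.27 SE, adjusted p = 0.00039). Ribosomal protein genes were lower as a family, 74 of 77, with a median log2 fold change of -0.90.

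**Figure D3:**
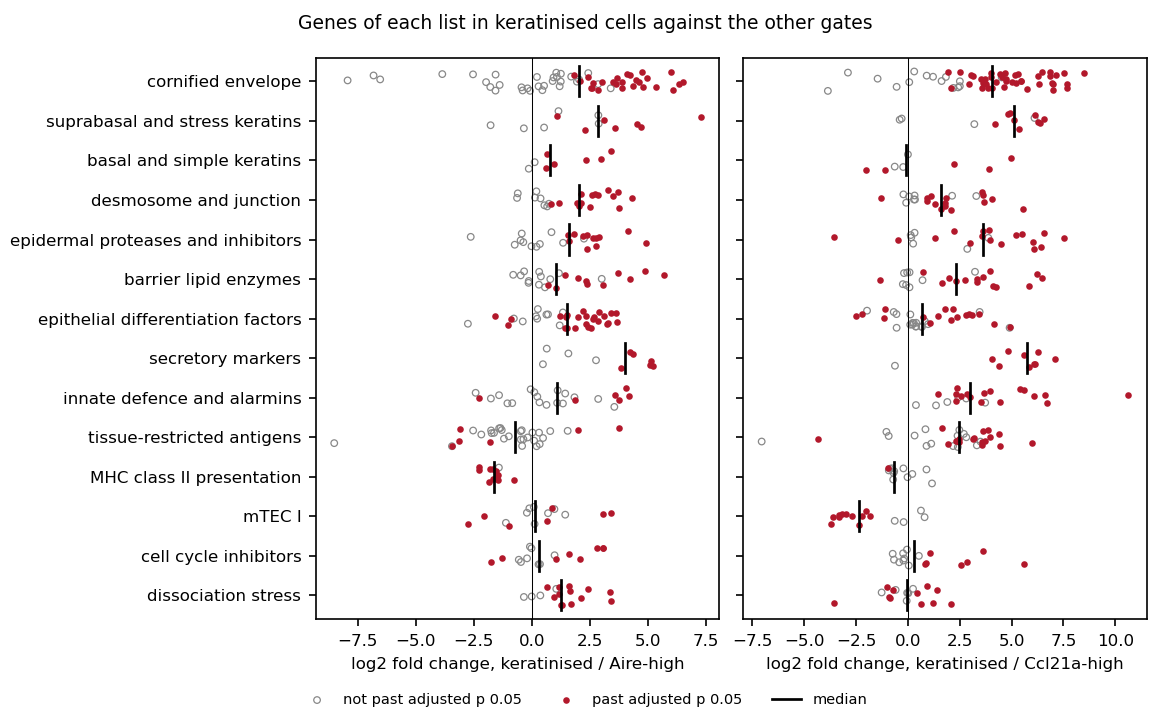
Each point is 1 gene of the list named at the left, placed by its log2 fold change in the members against Aire-high cells (left) or Ccl21a-high cells (right); filled points passed an adjusted p of 0.05, open points did not, and black bars are medians. Cornified envelope genes have a median of 2.03 on the left and 4.06 on the right, and class II genes of -1.61 and -0.67.

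The comparison with Ccl21a-high cells asks how the members differ from the chemokine-producing medullary cells. Of the 15350 genes, 2026 (13.2%) were higher and 1887 (12.3%) lower in the members, 25.5% in all, with a median log2 fold change of -0.01. Without the library term 2518 genes passed, and with sample weights 3211, of which 63.9% were higher against 51.8%. This comparison uses the same sums of members as the one above. Of 57 cornified envelope genes 42 were higher and 0 lower (median 4.06), of which 28 were higher in both libraries, as were 1597 of all 2026 higher genes. Krtdap differed by 3.13 ± 0.28 (SE, adjusted p = 0.00057) and Sprr1a, at 71.7 and 73 CPM in Ccl21a-high cells, by 4.25 ± 0.18 (SE, adjusted p = 1.7e-05) on the log2 scale. Cnfn was at 1.01 and 6.26 CPM in Ccl21a-high cells (log2 fold change 6.96 ± 0.78 SE, adjusted p = 0.0046) and Rptn at 1.01 and 7.34 (log2 fold change 6.84 ± 0.88 SE, adjusted p = 0.007). Of the suprabasal and stress keratins 9 of 13 were higher and 0 lower, and Krt77 was at 225 and 277 CPM against 0.203 and 5.51 (log2 fold change 6.25 ± 0.85 SE, adjusted p = 0.008). Krt17 was at 8525 and 7875 CPM in Ccl21a-high cells, above the members in both libraries, and did not pass (log2 fold change -0.39 ± 0.15 SE, adjusted p = 0.087).

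Genes that mark Ccl21a-producing cells were lower in the members than in Ccl21a-high cells, and limits on Ccl21a chose both gates. Of 15 genes of the mTEC I list, which describes Ccl21a-producing medullary cells, 0 were higher and 11 lower, with a median log2 fold change of -2.34 against -0.01 for all genes. Against Aire-high cells 4 of the 15 (26.7%, against 9.82% of all genes) were higher and 3 (20%, against 10.6%) lower. Against ungated cells 0 were higher and 2 (13.3%, against 3.08%) lower. The list summed to 4542 and 2461 CPM in the members, above the 966 and 1137 in Aire-high and the 1709 and 1994 in ungated cells. Krt14, the partner of Krt5 in basal cells, was at 661 and 493 CPM in the members and 2748 and 1942 in Ccl21a-high cells (log2 fold change -2.04 ± 0.20 SE, adjusted p = 0.00038). The basal integrin Itga6 was at 96.3 and 77 against 309 and 271 CPM (log2 fold change -1.82 ± 0.18 SE, adjusted p = 0.00046). Krt5 stood apart from Krt14, at 1579 and 466 against 1618 and 1265 CPM, and did not pass (log2 fold change -0.63 ± 0.54 SE, adjusted p = 0.45). The cathepsin Ctsl was at 237 and 165 against 2474 and 2060 CPM (log2 fold change -3.58 ± 0.30 SE, adjusted p = 0.00044), Sox4 at 186 and 289 against 1111 and 1193 (log2 fold change -2.21 ± 0.19 SE, adjusted p = 0.00024) and the interferon-induced chemokine Cxcl10 at 424 and 468 against 4572 and 2642 (log2 fold change -2.92 ± 0.21 SE, adjusted p = 0.00016). All of these but Krt5 passed in every alternative. The 10 genes with the largest decreases were Gas1, Scx, Fst, Tgfbi, Tagln, Ccl11, Ch25h, S1pr3, Slc27a3 and Acta2, with 0 to 5 UMIs in the members of replicate 1 and 2 to 65 in those of replicate 2. Acta2, a smooth muscle actin, was at 6.42 and 40.1 against 819.5 and 616 CPM (log2 fold change -4.65 ± 0.55 SE, adjusted p = 0.0036). Endothelial and mesenchymal markers summed to 38.1 and 69.8 CPM in the members against 201.7 and 124.9 in Ccl21a-high cells. Of 8 tested markers 2 (25%, against 13.2% of all genes) were higher and 1 (12.5%, near the 12.3% of all genes) lower. The part of these markers in the decreases was not tested.

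Of the 35 differentiation factors 13 (37.1%, against 13.2% of all genes) were higher and 4 (11.4%, against 12.3%) lower than in Ccl21a-high cells. Ovol1 was at 1.82 and 3.67 CPM in Ccl21a-high cells (log2 fold change 4.94 ± 0.34 SE, adjusted p = 0.00013), Zfp750 at 9.32 and 10.6 (log2 fold change 3.09 ± 0.24 SE, adjusted p = 0.00016) and Grhl1 at 7.9 and 8.96 (log2 fold change 2.94 ± 0.30 SE, adjusted p = 0.00047), all below the members in both libraries. Klf4 was at 386 and 208 CPM (log2 fold change 1.06 ± 0.19 SE, adjusted p = 0.0058), and Klf5, Hes1 and Notch1 were at 189 and 143, 99.3 and 93.6 and 45.2 and 40.4 CPM, beside 186 and 197, 96.3 and 119.6 and 38.5 and 50.5 CPM in the members. The 10 largest increases were Flg, Spink1, Tmem45a, Calm4, Serpinb2, Pdzk1ip1, Gsta4, Gm94, Ly6g6c and Agr2, with log2 fold changes from 7.08 to 8.50. Secretory markers were higher for 9 of 10 genes (median 5.73) and innate defence genes for 17 of 23. The peptidoglycan-binding protein Pglyrp1 was at 2945 and 1276 CPM against 11.3 and 66.6 (log2 fold change 6.07 ± 1.02 SE, adjusted p = 0.015) and the defensin Defb6 at 231 and 1021 against 2.84 and 28.7 (log2 fold change 5.39 ± 0.75 SE, adjusted p = 0.0086). The chemokine Ccl20 was at 732 and 749 against 4.26 and 20.7 CPM (log2 fold change 5.92 ± 0.61 SE, adjusted p = 0.0032). Of the tissue-restricted antigens 16 of 32 were higher and 1 lower; 11 of the 16 were higher in both libraries, and 16 of the 32 genes had no UMI in the members of replicate 1. Of 12 class II genes 1 (8.33%, below the 12.3% of all genes) was lower and 0 higher; Cd74 was at 14413 and 12110 CPM in Ccl21a-high cells and did not pass (log2 fold change -0.69 ± 0.32 SE, adjusted p = 0.17). Stress genes were split, with 6 higher and 5 lower, and the early response genes Fos and Jun were among the lower ones. Fos was at 2349 and 1379 CPM against 3850 and 2284 (log2 fold change -0.72 ± 0.11 SE, adjusted p = 0.0032) and Jun at 1527 and 841 against 2676 and 1900 CPM. Ribosomal protein genes were lower here too, 69 of 77.

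Against ungated cells, which carry none of the limits and are a mixture, 576 genes (3.75%) were higher and 473 (3.08%) lower, 6.83% in all. Without the library term 228 genes passed. Cornified envelope genes were higher for 16 and lower for 1 of 57, suprabasal keratins higher for 6 of 13, desmosome genes for 11 of 23 and barrier lipid enzymes for 10 of 23, with no lower gene in these last 3 lists. Krtdap differed by 4.70 ± 0.30 (SE, adjusted p = 0.0013) and Sprr1a by 2.86 ± 0.17 (SE, adjusted p = 0.00027) on the log2 scale. Of 12 class II genes 3 were lower. Stress genes were higher for 12 and lower for 1 of 17, and ribosomal protein genes lower for 49 of 77; their part in the other differences was not tested.

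The same genes can be read by their place in the genome. The epidermal differentiation complex is a cluster of envelope and S100 genes, here bounded by S100a13 and S100a10, on chromosome 3 from 90514435 to 93564643 in the mouse build mm10. Of its 62 tested genes 16 (25.8%, against 9.82% of all genes) were higher and 5 lower than in Aire-high cells, and 15 of the 16 were higher in both libraries. Against Ccl21a-high cells 35 (56.5%, against 13.2% of all genes) were higher and 1 lower, but only 18 of the 35 were higher in both libraries and the other 17 had no UMI in the members of replicate 1. In the type I keratin cluster on chromosome 11 (99279959 to 100269871) 7 of 26 tested genes (26.9%) were higher and 0 lower than in Aire-high cells, and 11 (42.3%) higher and 1 lower than in Ccl21a-high cells, 8 of the 11 in both libraries. In the type II cluster on chromosome 15 (101347444 to 102032027) 9 of 24 (37.5%) were higher and 0 lower than in Aire-high cells, and 12 (50%) higher and 1 lower than in Ccl21a-high cells, 11 of the 12 in both libraries. Many of these genes are on the lists already described. Krtdap, Dmkn and Sbsn lie outside these clusters, on chromosome 7.

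The members were not alike. Members with more Krt10 than Spink5 UMIs (5 cells in replicate 1 and 75 in replicate 2) are called Krt10-led and those with more Spink5 than Krt10 UMIs (13 and 123) Spink5-led; 1 and 2 cells had equal counts. This division was made after the values were seen and uses genes of the rule, so its values are a description with no test, and in 3 and 26 members the counts were within 2-fold of each other. Levels here are CPM by the plain total of the summed cells, and Krt10-led values of replicate 1 rest on 36235 UMIs. Aire UMIs were found in 48% of Krt10-led and 50.4% of Spink5-led members of replicate 2, and in 1 of 5 and 0 of 13 members of replicate 1.

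Krt10-led members carried more of some skin genes. Krtdap was at 4013 and 5450 CPM in Krt10-led and 2105 and 1686 in Spink5-led members, and Krt77 at 803 and 432 against 67.2 and 176. Fam25c was at 996 and 1579 against 146 and 312 CPM, Krt16 at 719.6 and 572 against 325 and 272, desmoplakin at 1328 and 665 against 448 and 333 and the defensin Defb6 at 969 and 1593 against 11.2 and 459. In replicate 1 these values rest on 5 Krt10-led cells, and for Krtdap 1 of them held 123 of the 145 UMIs. Without that cell Krtdap was at 707 CPM there, below the Spink5-led cells, so that for Krtdap the direction in replicate 1 rests on 1 cell. The other 5 genes stayed above the Spink5-led cells in both libraries when the Krt10-led cell with most UMIs of the gene was left out. Other genes were held by both kinds of member: Ly6d was at 4677 and 4424 CPM in Krt10-led and 5790 and 4134 in Spink5-led members, Dapl1 at 4677 and 4095 and 3729 and 2737, and Rptn at 470.5 and 204 and 874 and 473, the last higher in Spink5-led cells. The cornified envelope list summed to 24380 and 21690 CPM in Krt10-led and 18810 and 14160 in Spink5-led members.

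The secretory list was higher in sum in Spink5-led members, whereas the innate defence list was close in both, at 5231 and 4117 CPM in Krt10-led and 6372 and 4862 in Spink5-led members. Of the secretory list, Scgb1a1 was higher in Krt10-led cells of both libraries. Gsto1 had 0 and 26 UMIs in Krt10-led members, or 0 and 41.2 CPM, and 3472 and 1588 CPM in Spink5-led members. Reg3g was at 138 and 1053 CPM in Krt10-led and 16970 and 16800 in Spink5-led members, so that Spink5-led cells held nearly all of it. In replicate 1 a single Spink5-led cell held 1030 of the 1515 Reg3g UMIs of these cells, 232 of 310 Gsto1 UMIs, 840 of 1139 Wfdc2 UMIs and 204 of 212 Bpifa1 UMIs, each gene taken on its own. Wfdc2 was at 415 and 489 against 12760 and 3821 CPM, Spink1, a secreted trypsin inhibitor, at 304 and 779 against 5454 and 4956, and the uroplakin Upk3a at 83 and 12.7 against 3405 and 295. Agr2, a secretory-cell chaperone, had 0 and 8 UMIs in Krt10-led members, with 493 and 312 CPM in Spink5-led members. In each library 1 Spink5-led cell held most Agr2 UMIs of these cells, 38 of 44 and 258 of 309. Without that cell Agr2 was at 70.5 and 52 CPM in Spink5-led members. The simple keratin Krt19 was at 0 and 116 against 706 and 601 CPM and the stress keratin Krt6a at 0 and 22.2 against 482 and 198. The secretory list summed to 1522 and 2379 CPM in Krt10-led and 16980 and 7191 in Spink5-led members. Markers of microfold cells moved with this division, at 1356 and 1752 against 4782 and 3781 CPM, and their part in it was not tested. Among 923 genes with at least 20 UMIs in the members of replicate 1, 23 were at least 2-fold higher in Spink5-led and 7 in Krt10-led cells in both libraries, on CPM plus 50. With Krt10-led members alone the log2 fold changes against Aire-high cells were -0.71 for Reg3g and -0.19 for Agr2, opposite in sign to those of all members. Gsto1, Bpifa1, Ltf and Cyp2f2 did not pass in that fit, which had 5 cells in replicate 1.

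**Figure D4:**
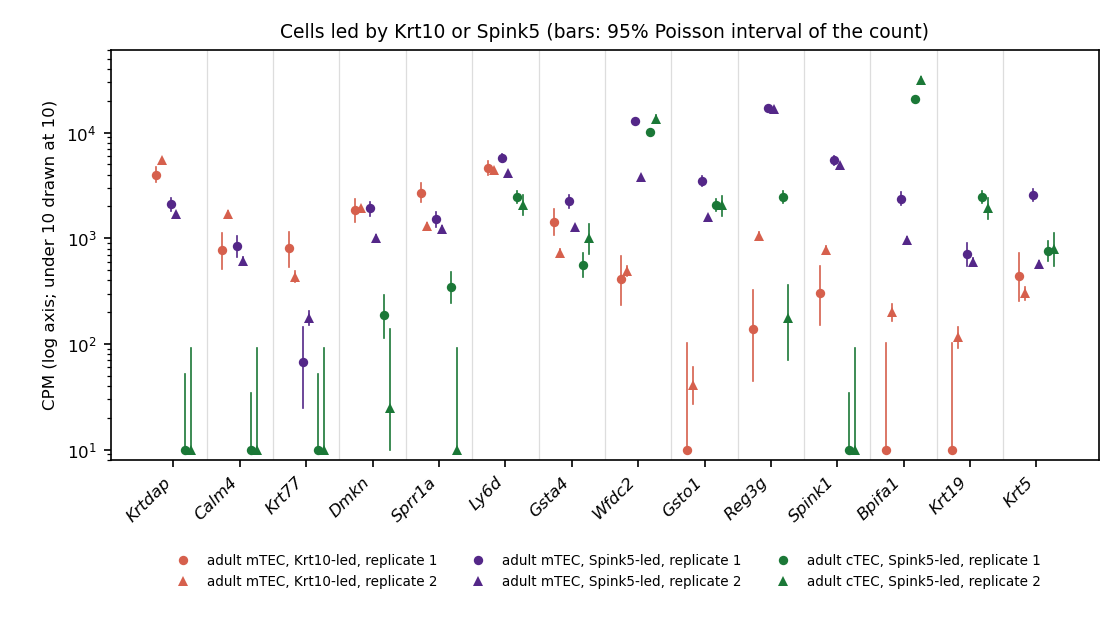
Each symbol is the level of a gene in the summed cells of 1 library, in CPM on a log axis, with the 95% Poisson interval of the count as a bar and values under 10 drawn at 10; orange stands for Krt10-led and purple for Spink5-led members, and green for the Spink5-led cells of the adult cTEC libraries that met the same limits. Krtdap and Krt77 lie highest in orange, Reg3g, Gsto1 and Spink1 in purple, and the green cells hold Bpifa1 at 20950 and 31650 CPM with almost no Krtdap.

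Levels also followed the number of rule-gene UMIs that a member carried, which is again a description. Keratin UMIs here means the UMIs of Spink5, Krt10, Ivl and Krt80 together, though Spink5 and Ivl do not encode keratins. In replicate 2 there were 77 members with 5 to 9 keratin UMIs, 47 with 10 to 19, 41 with 20 to 39 and 35 with 40 and over, at a median depth of 8117, 6789, 7828 and 8659 UMIs. The cornified envelope list, without the rule genes, summed to 8737, 16948, 25596 and 24486 CPM in these classes. The class II list summed to 28932, 22710, 21789 and 17293 CPM, the lowest value being in the class with most rule-gene UMIs. The stress list ran from 8238 CPM in the first class to 13686 in the last, with 14283 CPM in the third, and its part in the other trends was not tested. In replicate 1 the classes held 6, 3, 7 and 3 members. There the envelope list summed to 4723, 26856, 14337 and 48706 CPM and the class II list to 18175, 7966, 16559 and 4394 CPM, so that the first and last classes differed in the same direction as in replicate 2 and the middle classes did not follow in order.

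**Figure D5:**
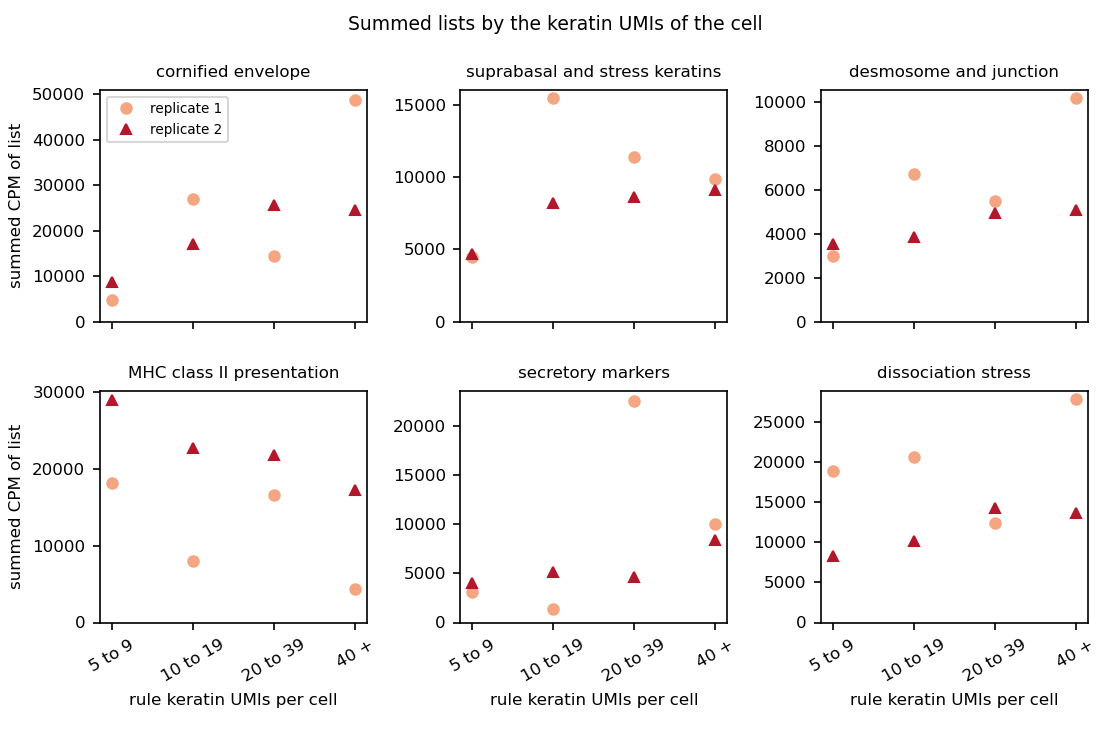
Each panel gives the summed CPM of 1 list (y axis, from 0), with circles for replicate 1 and triangles for replicate 2. Members are grouped by their UMIs of the rule genes together (x axis). From the first to the last class of replicate 2 the cornified envelope list goes from 8737 to 24486 CPM and the class II list from 28932 to 17293 CPM, and the replicate 1 points rest on 3 to 7 cells each.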

How the data were processed

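Single TEC of 8 droplet libraries were measured by 3′ RNA sequencing with UMIs. The authors deposited UMI counts per gene and cell, not normalized; per the labels, reads were processed with bcl2fastq 2.17, STAR 2.5.1b and Cell Ranger 2.0.1 on mm10, while the headers of 3 libraries name Cell Ranger 3.0.1. The data sets hold 27998 and 31053 genes, of which 27514 are shared and were used. Cells with over 5% mitochondrial UMIs or over 5000 genes were left out, as the methods of the study state, so 1586 of 1818 and 5615 of 7023 adult mTEC were kept. For all 3 libraries of the second data set, the number kept differs from the cell number that the study states. It is higher for both adult libraries and lower for E17.5 cTEC.

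The labels give no cell types, so cells were gated by the limits given in the report. The members, the gates and all gene lists were chosen with earlier results of these data known. Counts were summed per gate and library (8 sums, 131206 UMIs in the smallest), since cells are not replicates. The sums were tested with edgeR 4.0.16 (R 4.3.3; filterByExpr, TMM, quasi-likelihood F-test) with gate and library as terms and 3 residual degrees of freedom, and p-values were adjusted over 15350 genes by the Benjamini-Hochberg method. The library term pairs gates that come from the same library. The 14 genes of the limits were not called. The SE of a log2 fold change was taken from its F statistic. CPM of genes in the gates are TMM-scaled; CPM of lists, of Krt10-led and Spink5-led cells and of keratin classes are per plain total. A call is an adjusted p under 0.05. The genes named were the 10 largest changes in each direction with an average log2 CPM above 5 and 1 sign in both libraries, outside the limits and the ribosomal, haemoglobin, antigen receptor and mitochondrial genes, with the leading genes of each list and all called genes of the envelope, suprabasal keratin and factor lists. Other genes given a value were chosen after their values were seen. Some genes that the rule names are not reported here.

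In simulated sums, known changes were given only to genes with an average log2 CPM above 5. The Aire-high comparison recovered 49 of 100 genes changed by 1 and 98 of 100 changed by 2 on the log2 scale (14864 genes), and the Ccl21a-high comparison 44 and 97 (14740 genes). Recovery among lower genes was not measured. In the data, 5324 of the 15350 genes tested had no UMI in the members of replicate 1. False calls made up 3.92% and 8.44% of the simulated calls, so that the second comparison exceeded the 5% that the threshold allows. Other size factors, DESeq2 1.42.0, voom (limma 3.58.1), gates and depths were tried as alternatives. Coordinates are from GENCODE M21 on GRCm38 (mm10). Intervals cover counting error only.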

Additional observations from a re-analysis of the deposited data

Results flagged for a closer look

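Cells that met the same limits were also found in the adult cTEC libraries, which no comparison of the report uses. There were 16 such cells of 507 in adult cTEC replicate 1 (3.16%, 95% exact binomial interval 1.81 to 5.07) and 6 of 535 in replicate 2 (1.12%, 0.413 to 2.42). All of them were Spink5-led and none had an Aire UMI. Bpifa1 was at 20950 and 31650 CPM in these cells, against 2015 and 1148 CPM in the other kept cTEC of the same libraries and 2374 and 961 CPM in Spink5-led members. Krtdap had 1 and 0 UMIs in them, or 9.32 and 0 CPM, and Spink1 had none. The secretory list summed to 32440 and 46910 CPM and the stress list to 30580 and 32220 CPM, and the part of either in the finding was not tested.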

How the results depend on the processing

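The members of replicate 1 were 19 cells with 131206 UMIs in sum, which limits what can be seen of low genes there, and 1 estimate of spread served all 8 sums. The fits with the replicate block (the library term) gave 3130, 3913 and 1049 calls against Aire-high, Ccl21a-high and ungated cells; without the block there were 1748, 2518 and 228. Sums thinned to the smallest total, where 2903 genes could be tested, gave 771, 742 and 442 calls, and Krt10-led members alone, 5 cells in replicate 1, gave 1468, 2591 and 351. Against ungated cells a keratin limit of 3 UMIs gave 438 calls and Spink5-led members 599. The count of calls stayed within 1.5 times under the other alternatives run. Counts within lists moved more, and some alternatives tested fewer genes. Against Aire-high cells 15 to 27 envelope genes, 7 to 23 differentiation factors and 3 to 12 barrier lipid enzymes were higher. There 6 to 12 class II genes and 33 to 74 ribosomal protein genes were lower. The share of members in replicate 2 was 2.34% in cells thinned to 5000 UMIs, 2.99% of all deposited cells, 5.04% and 2.19% at keratin limits of 3 and 10 UMIs, and 4.17% with no limit on Aire.

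Of 156 results on named genes, 53 lost their call in at least 1 alternative and the other 103, which include genes that had no call, did not. Calls were lost most often with Krt10-led members (28), with no filter on low counts (19), without the replicate block (14) or with gates and counts from separate UMIs (13); the cause was not tested. Against Aire-high cells 3 changed sign: Krt8 in thinned sums (0.29 on the log2 scale), and Reg3g (-0.71) and Agr2 (-0.19) with Krt10-led members. Fits on 1 library alone leave no residual degrees of freedom, so they gave values and no test. Alternatives that restrict members to cells without an Aire UMI, leave out Krt80, divide members by Krt10 and Spink5, or use voom were chosen after seeing the data.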
